A study of Mus musculus with 6 samples.

Results

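This account covers 10 mouse genes of interleukin-18, interleukin-1 and the inflammasome, all 10 of which were found among the 22180 genes with a name of their own on the array. They are the cytokine genes Il18, Il1a and Il1b, the genes of the secreted antagonists Il1rn and Il18bp, the protease gene Casp1, the adaptor gene Pycard and the sensor genes Nlrp3, Nlrc4 and Aim2. The genes were chosen by name, at a point when the difference of Il18 in these data was already known, so its values are given as a description. A row of the table was to be selected on its mean level over the 6 arrays, but each of the 10 genes had only 1 transcript cluster (the set of probes read as 1 gene), so no row had to be picked by its values.

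The samples were myeloid cells from mouse fetal liver cultured with GM-CSF at 1 ng/ml, a factor that supports granulocytes and macrophages. The control group held 3 samples without doxycycline, and the induced group held 3 samples given doxycycline at 1000 ng/ml for 72 hours, which the labels describe as PU.1 expression. The time is given as 72 hours for the control group as well. PU.1, encoded by Spi1, is a transcription factor of the ETS family that directs myeloid and B cell development. The strain, the engineered construct and its promoter are not stated in the labels, and no sample is labelled as given the drug alone, so the drug and PU.1 cannot be told apart. Replicates carry the letters A, B and C in both groups; nothing says that they were separate cultures, so each p-value measures only the spread between these samples.

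Interleukin-1 and interleukin-18 are related inflammatory cytokines. Pro-interleukin-1β and pro-interleukin-18 are made as inactive precursors and cut by caspase-1, whereas interleukin-1α can act uncut. Caspase-1 is activated on the inflammasome, in which a sensor (NLRP3, NLRC4 or AIM2) recruits it, commonly through the adaptor ASC, the product of Pycard. In macrophages the genes Il1b and Nlrp3 are known to be switched on by Toll-like receptor and NF-κB signals, a step called priming. Transcript levels do not show whether a precursor was cut or released.

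Sequence before the transcription start was read for all 10 genes from RefSeq (mouse GRCm38.p6), in windows of 300 bases that run from 250 bases before the start to 50 after it. The windows numbered 13, since Il1rn had several starts and so did Nlrp3. The 250 bases before the start are shown for the gene whose level differed most (Il18), for the member whose groups did not overlap in the lower direction (Aim2) and for the start of Nlrp3 with most matches, each 5′ to 3′ on the gene's strand. Capitals mark GAGGAA, the core of the site that PU.1 prefers, or its reverse complement TTCCTC.
Il18, chr9:50554450-50554699, plus strand: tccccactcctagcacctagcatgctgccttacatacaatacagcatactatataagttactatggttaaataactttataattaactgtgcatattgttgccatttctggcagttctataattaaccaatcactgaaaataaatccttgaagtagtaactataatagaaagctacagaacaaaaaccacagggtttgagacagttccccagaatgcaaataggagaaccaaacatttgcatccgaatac
Aim2, chr1:173420354-173420603, plus strand: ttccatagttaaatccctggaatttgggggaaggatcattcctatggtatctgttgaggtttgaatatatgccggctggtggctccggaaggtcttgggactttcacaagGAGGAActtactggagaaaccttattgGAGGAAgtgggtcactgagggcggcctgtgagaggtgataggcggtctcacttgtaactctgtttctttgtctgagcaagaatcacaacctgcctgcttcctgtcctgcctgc
Nlrp3, chr11:59542436-59542685, plus strand: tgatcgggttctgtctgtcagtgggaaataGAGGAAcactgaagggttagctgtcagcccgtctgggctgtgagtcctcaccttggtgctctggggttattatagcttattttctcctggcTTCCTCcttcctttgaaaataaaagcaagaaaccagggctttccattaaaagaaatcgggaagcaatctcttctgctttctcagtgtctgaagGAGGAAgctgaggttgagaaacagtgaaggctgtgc

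GAGGAA was searched on both strands and was present in 5 of the 13 windows, against 28.3% of all 32851 mouse windows of that length. The Il18 window held none, the Aim2 window 2 and the Nlrp3 window 3. The Aim2 window lies inside the span given for that gene, which runs from 173349547 to 173466040. Sequence before the first base of that span was not searched. The windows of Il1a, Pycard and Casp1 held 1 match each. The NF-κB consensus was present in 1 of the 13 windows, the other start of Nlrp3, against 5.8% of all windows, and it overlapped no GAGGAA there. A match is a run of letters and was not tested as a binding site.

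Among the members, Il18 was higher in induced cells and no other member passed the test. With limma and Benjamini-Hochberg adjustment over all 22180 genes, 1 of 10 members was higher, against 0.374% of all genes, and 0 were lower, against 1.05% of all genes. The count of 1 was known when the genes were chosen, so nothing is read from its share. At an unadjusted p under 0.05 there were 2 of the 10, Il18 and Aim2, against 28.3% of all genes. The 3 induced values lay above the 3 uninduced values for 1 member (Il18), against 16% of all genes, and below them for 1 member (Aim2), against 15.4%. The median change of the 10 members was 0.027 on the log2 scale, and that of all genes was 0.058. In cultures measured in bulk, fewer cells of a type and less RNA per cell cannot be told apart.

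**Figure D1:**
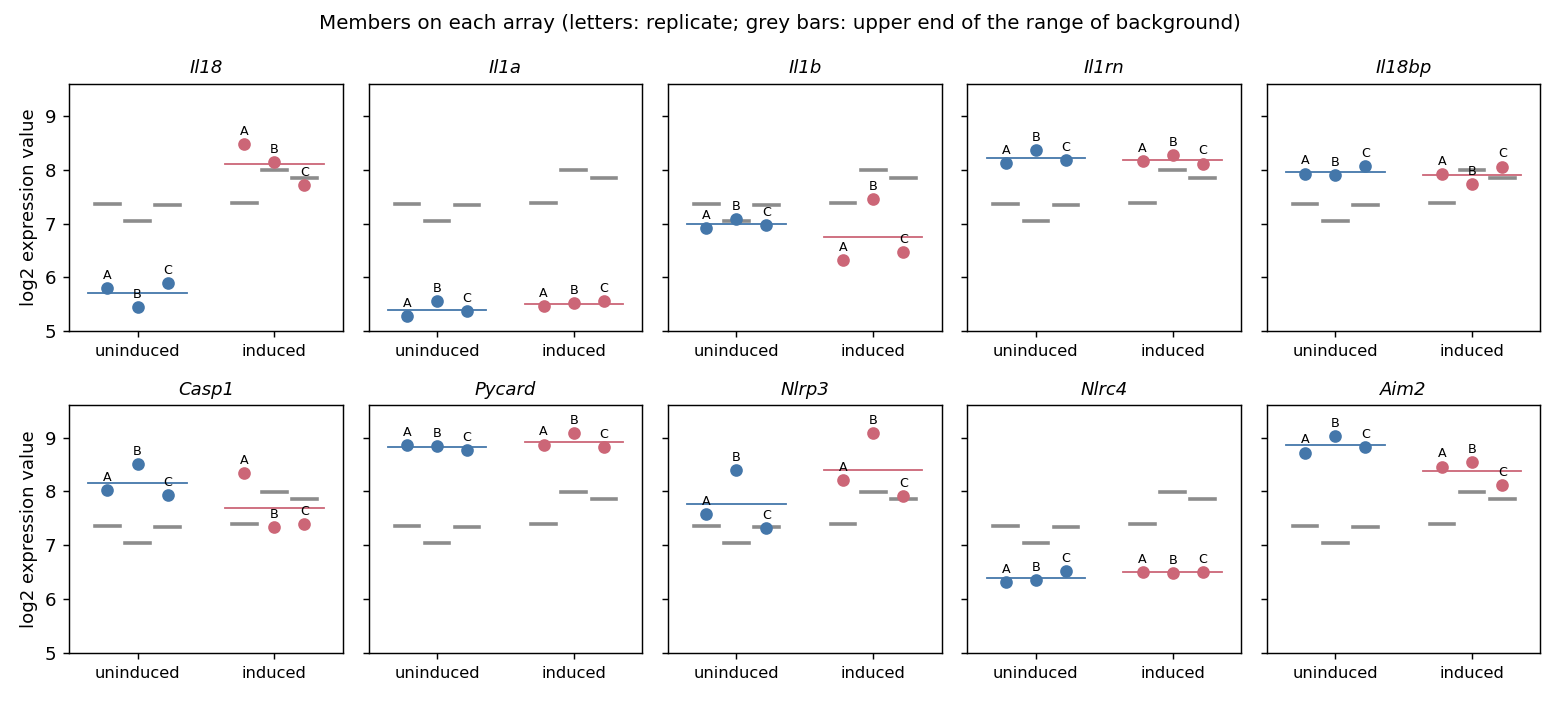
Log2 expression value (vertical axis) of the 10 members on each of the 6 arrays; points are arrays, letters are replicates, coloured lines are group means, and a grey bar is the background level of that array. The Il18 points move from 5.45 to 5.89 in uninduced cells to 7.72 to 8.48 in induced cells, while the groups overlap for all other members except Aim2.

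Some facts of the whole data set bear on every value. As a guide to background, the 95th percentile of 1394 olfactory and vomeronasal receptor genes lay between 7.05 and 7.39 on the 3 uninduced arrays and induced A, but at 7.99 on induced B and 7.85 on induced C. A value under that level is said here to be at background. Changes also moved with level. With all genes ranked by mean level and cut into 10 classes of equal size, the class that held Il18 had a median log2 change of 0.19, that of Nlrp3 and Casp1 -0.32 and that of Pycard and Aim2 -0.37. The part of this in the members' changes was not tested. Spi1 was at 8.80, 8.65 and 8.84 in uninduced and 9.13, 9.04 and 9.05 in induced cells, a difference of 0.31 (SE 0.12, limma adjusted p = 0.152). Its induced values all lay above its uninduced ones, as they did for 16% of all genes. Genes of a like level had a median change of -0.37. The difference of Spi1 was 0.52 after quantile normalization (limma adjusted p = 0.101), 0.67 after cyclic loess (0.0915) and 0.17 after median centring (0.356). Whether its probes read the engineered gene is not known here.

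Il18 encodes pro-interleukin-18 and lies on chromosome 9 from 50554700 to 50581841 (GRCm38). Its log2 value was 5.80, 5.45 and 5.89 in the uninduced samples A, B and C. In the induced samples it was 8.48, 8.14 and 7.72. Every induced value was higher than every uninduced one, by more than the spread within either group, and the induced values were themselves spread over 0.76. Relative to the uninduced mean, induced A was 2.76 higher, induced B 2.42 and induced C 2.01. The difference was 2.40 (SE 0.20, 95% interval 1.96 to 2.83, limma adjusted p = 0.000297 over all genes), where genes of a like level had a median change of 0.19. Since this difference was known when the genes were chosen, its p is no independent support. All 3 uninduced values were at background, at -1.59 to -1.45 relative to that level, so the starting level is only a bound. Induced A was at 1.09, induced B at 0.15 and induced C at -0.13 relative to it. The induced mean was 1.82-fold the mean background of the uninduced arrays. Background was higher on induced B and C, so 1.82-fold is not a firm lower bound of the rise. Under the 13 alternatives that tested Il18, including the removal of each array, its change ran from 1.98 to 2.59 with adjusted p from 7.29e-07 to 0.00695. A filter that left out the dimmer 50% of genes removed Il18, so that no member passed.

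The other cytokine genes of the set were low. Il1a, on chromosome 2 from 129299609 to 129310186, encodes interleukin-1α. It read 5.27, 5.55 and 5.38 in uninduced and 5.46, 5.52 and 5.55 in induced cells, at background on all 6 arrays, so no fold is given (limma adjusted p = 0.539). Its measured difference of 0.11 (95% interval -0.18 to 0.40) became -0.028 after quantile normalization, -0.031 after median centring and -0.08 after cyclic loess.

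Il1b (chromosome 2, 129364569 to 129371164), the gene of pro-interleukin-1β, was at 6.92, 7.08 and 6.98 in uninduced A, B and C. In induced cells it was at 6.32, 7.46 and 6.47. The uninduced values were close to each other, while in the induced group A and C lay below all uninduced values and B above them. Only uninduced B was above background, by 0.03. The difference of -0.24 had a 95% interval of -0.80 to 0.32 (limma adjusted p = 0.493), and was -0.60 (adjusted p = 0.15) without induced B and -0.025 (adjusted p = 0.939) without induced A.

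The antagonist genes differed little between the groups. Il1rn (chromosome 2, 24336860 to 24351491) encodes the interleukin-1 receptor antagonist, which occupies the receptor without signalling. Its values were 8.13, 8.36 and 8.18 in uninduced and 8.15, 8.27 and 8.12 in induced cells, all above background. The groups overlapped, with a difference of -0.04 (95% interval -0.33 to 0.24, limma adjusted p = 0.818). After cyclic loess it was 0.22, on the other side of 0.

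Il18bp (chromosome 7, 102015074 to 102018232) encodes the secreted protein that binds and neutralizes interleukin-18. It was at 7.93, 7.89 and 8.07 in uninduced and at 7.92, 7.73 and 8.06 in induced cells. It exceeded background in every sample but induced B. The difference was -0.06 (95% interval -0.36 to 0.24, limma adjusted p = 0.755), and 0.14 after cyclic loess. On this interval a change of Il18bp as large as that measured for Il18 was outside the range, while a 1.28-fold fall was inside it.

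Casp1 and Pycard encode the protease and the adaptor of the inflammasome. Casp1 (chromosome 9, 5298517 to 5307281) was at 8.02, 8.51 and 7.94 without doxycycline (A, B and C) and at 8.34, 7.33 and 7.39 in induced A, B and C. Induced B and C were below every uninduced value and at background, whereas induced A lay within the uninduced values. The difference was -0.47 (SE 0.26, 95% interval -1.04 to 0.10, limma adjusted p = 0.235). Without induced A it was -0.80 (adjusted p = 0.017), a setting under which 1998 genes were called higher and 3535 lower. It was -0.27 after cyclic loess and -0.29 without uninduced B or without induced B (adjusted p from 0.549 to 0.578).

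Pycard (chromosome 7, 127991373 to 127993867) had the smallest spread among the uninduced samples of the 10 genes, at 8.86, 8.84 and 8.78. In induced cells it was at 8.87, 9.08 and 8.83. All 6 values were above background. The difference of 0.10 (95% interval -0.19 to 0.38) did not pass the test (limma adjusted p = 0.581). Genes of a like level had a median change of -0.37, and after cyclic loess, which takes up such a shift, Pycard stood at 0.45 (adjusted p = 0.195), but at -0.043 after median centring.

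The sensor genes took different courses. Nlrp3 (chromosome 11, 59541569 to 59566955) encodes the sensor of potassium loss and membrane damage. It was at 7.58, 8.39 and 7.32 without doxycycline (A, B and C) and at 8.21, 9.08 and 7.92 in induced A, B and C. Uninduced C was at background, at -0.017 relative to that level, while uninduced A was at 0.21 and induced C at 0.061. Array B was the highest in either group, and uninduced B was higher than induced A and C, so that the groups overlapped. The difference was 0.64 (SE 0.32, 95% interval -0.064 to 1.34, limma adjusted p = 0.201). It was above 0 in all 14 alternatives, from 0.30 without induced B to 0.95 without uninduced B. It passed the threshold only with array weights (0.66, adjusted p = 0.02), a setting that called 5825 genes higher and 5681 lower.

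Aim2 (chromosome 1, 173349547 to 173466040) encodes the sensor of cytosolic DNA. It was at 8.72, 9.03 and 8.83 in uninduced and at 8.46, 8.55 and 8.12 in induced cells, above background on all 6 arrays. Every induced value was below every uninduced one. The difference was -0.49 (SE 0.15, 95% interval -0.82 to -0.15), which did not pass the adjusted test (limma adjusted p = 0.118, unadjusted p = 0.00949). Genes of a like level had a median change of -0.37, and the difference of Aim2 was -0.16 (adjusted p = 0.574) after cyclic loess and -0.53 (adjusted p = 0.0437) without induced A.

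Nlrc4 (chromosome 17, 74426255 to 74459144) encodes the partner of the NAIP proteins, which bind bacterial flagellin and secretion needles. It read 6.32, 6.35 and 6.53 in uninduced and 6.50, 6.49 and 6.50 in induced cells, at background throughout, so no fold is given (limma adjusted p = 0.58).

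**Figure D2:**
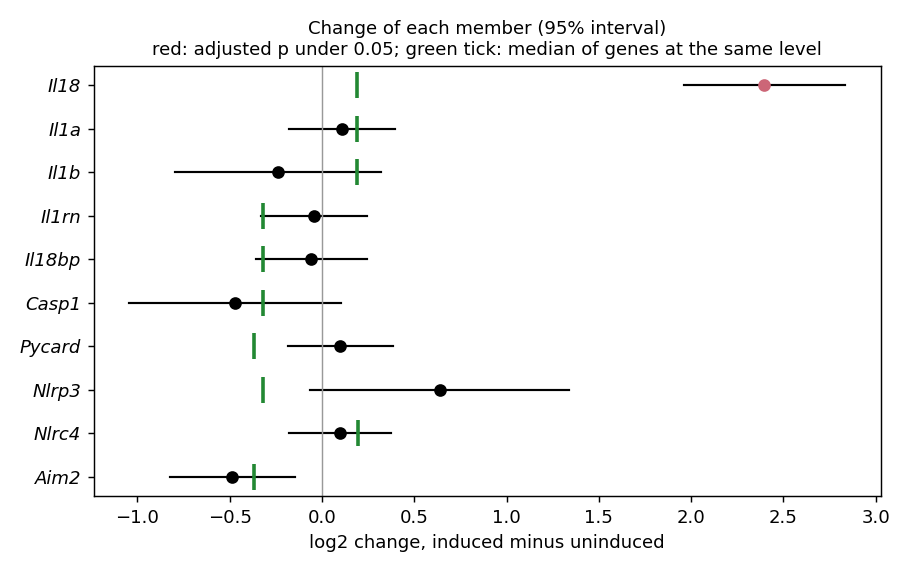
Log2 change of each member (horizontal axis, induced minus uninduced, 3 arrays per group) with its 95% interval from limma; a red point marks an adjusted p under 0.05 over all genes, and a green tick marks the median change of genes in the same of 10 classes of mean level. Il18, at 2.40, lies apart from its tick at 0.19, while the intervals of the other members except Aim2 include 0.

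The other genes of the pathway, in 7 lists of receptors, signalling proteins, ligands, sensors, effectors, proteases and priming genes, held 85 measured genes. Of these 0 were higher and 2 were lower by limma, against 0.374% and 1.05% of all genes. At an unadjusted p under 0.05 there were 7 higher and 25 lower, against 11.4% and 16.9% of all genes. The genes that passed are Gsdme and Mlkl, both of the list of pyroptosis effectors, inflammatory caspases and their inhibitors. The median change over the 85 genes was -0.11, against 0.058 over all genes. Changes moved with level in the whole data set, and the part of this in these counts and this median was not tested. The genes P2rx7, Gsdmd, Casp4, Il1r1, Il1rap, Il18r1, Naip5, Ninj1 and Capn2 are named for their role, after their values were seen, and the others by rule.

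Receptors and binding proteins had 0 of 9 genes past the threshold in either direction, with a median of -0.046. Il18rap, the signalling chain of the interleukin-18 receptor, was at 8.43, 8.89 and 8.63 in uninduced and 8.05, 8.39 and 7.64 in induced cells. Its groups did not overlap, with induced C at background, and the difference was -0.63 (SE 0.20, limma adjusted p = 0.118). Il18r1, the chain that binds interleukin-18, was at background on all 6 arrays. Il1rl2, the interleukin-36 receptor, was at -0.046 (adjusted p = 0.863). Il1r1, the interleukin-1 receptor, and Il1rap, its partner chain, were at -0.21 and -0.39 (adjusted p = 0.382 and 0.164). The value of Il1rap is that of the brightest of its 3 clusters; the mean of the 3 was -0.039 (adjusted p = 0.824).

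Of 14 genes of signalling below the interleukin-1 receptor 0 passed the test. All 14 had a change under 0 as deposited, from -0.63 to -0.08 with a median of -0.21, but after cyclic loess the median was 0.08. The adaptor gene Myd88 was at 10.03 ± 0.18 in uninduced and 9.84 ± 0.28 in induced cells (mean ± SD, n = 3 per group). Irak3, which encodes an inhibitory kinase-like protein of this pathway, was at 9.88 ± 0.16 and 9.80 ± 0.02. Both were above background on every array, and their differences of -0.19 and -0.08 turned to 0.17 and 0.28 after cyclic loess.

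Among 6 measured ligands of the wider interleukin-1 family, 5 were at background on all 6 arrays, Il1f6 (interleukin-36α) among them. Il1f9, which encodes interleukin-36γ, was at 7.34, 8.07 and 7.19 without doxycycline (A, B and C) and 8.22, 9.03 and 8.05 in induced A, B and C. Only uninduced B reached the induced values, and uninduced A and C were at background. The difference was 0.90 (SE 0.28, limma adjusted p = 0.116), and 1.01 (adjusted p = 0.0392) without induced A. With any other array left out it did not pass (adjusted p from 0.115 to 0.329), and it was 0.60 without induced B.

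The list of other sensors and regulators held 22 measured genes, 0 of them past the threshold, with a median of 0.094. In 12 of the 22 all values were at background. P2rx7, the ATP-gated channel that can set off NLRP3, was one of these, with a measured difference of 0.62 (adjusted p = 0.0538, and 0.0187 without induced A) and no fold given. With any other array left out its adjusted p was 0.0973 to 0.195. Txnip, a thioredoxin-binding protein, was at 10.56, 10.33 and 10.63 in uninduced and 10.25, 8.81 and 9.80 in induced cells, a difference of -0.88 (SE 0.29, limma adjusted p = 0.124) to which induced B contributed most. It was -0.48 without induced B and -1.20 (adjusted p = 0.013) without induced A. Nek7, a kinase that binds NLRP3, was at -0.27 (adjusted p = 0.234), and Naip5, the flagellin receptor that works with NLRC4, at -0.11 (adjusted p = 0.575).

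Effectors of lytic cell death and inflammatory caspases included both calls. Gsdme, a pore-forming gasdermin, was at 7.83, 7.71 and 7.78 in uninduced cells and at background in induced cells, at 7.17, 6.98 and 7.11. Its measured change was -0.69 (SE 0.12, limma adjusted p = 0.0258). The uninduced mean of Gsdme was 1.02-fold the mean background of the induced arrays. Background was 7.99 on induced B and 7.85 on induced C, above every uninduced Gsdme value, so 1.02-fold is not a firm lower bound of the fall. Mlkl, the executor of necroptosis, was at 8.58, 8.98 and 8.59 and then at 8.18, 7.78 and 7.54, and fell by 0.88 (SE 0.18, adjusted p = 0.0462); among the induced samples it exceeded background in A. Genes of a like level had a median change of -0.12 and -0.32 in these cases. Both calls ended when uninduced A, B or C, induced B or induced C was left out (adjusted p from 0.0675 to 0.121 for Gsdme and from 0.0926 to 0.209 for Mlkl). The changes were then -0.72 to -0.64 for Gsdme and -0.95 to -0.74 for Mlkl. The call of Mlkl also ended after quantile normalization (-0.76, adjusted p = 0.0765), median centring (-1.02, adjusted p = 0.0875) or cyclic loess (-0.60, adjusted p = 0.0737).

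Gsdmd, the pore former cut by caspase-1, was at 8.25, 8.40 and 8.47 in uninduced and 8.54, 7.85 and 8.14 in induced cells. Its groups overlapped, at a difference of -0.20 (limma adjusted p = 0.424), and the mean of its 2 clusters was -0.074. Casp4, which encodes mouse caspase-11, the sensor of cytosolic lipopolysaccharide, exceeded background in a single sample, uninduced B. Ninj1, which breaks the membrane of dying cells, was at -0.59 (adjusted p = 0.0526), and at -0.63 (adjusted p = 0.0135) without induced A. With any other array left out its adjusted p was 0.124 to 0.211. Its change was -0.36 (adjusted p = 0.169) after quantile normalization and -0.23 (adjusted p = 0.392) after cyclic loess. Ninj1 passed after median centring (-0.73, adjusted p = 0.0464), with the filter on dim genes (adjusted p = 0.0479) and with array weights (adjusted p = 0.000415). The list's median was -0.40, and -0.19 after cyclic loess.

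Of 7 genes of other proteases that can cut interleukin-1 family precursors 0 passed the test. The neutrophil elastase gene Elane was at 13.34 ± 0.03 and 13.41 ± 0.08 (mean ± SD, n = 3), and the cathepsin G gene Ctsg at 13.28 ± 0.07 and 13.24 ± 0.12. Capn2, a calpain, was at 9.33, 9.37 and 8.75 in uninduced and 8.56, 8.11 and 7.23 in induced cells, without overlap but not past the threshold (-1.18, SE 0.30, limma adjusted p = 0.0831). Induced C was at background. Capn2 passed with the filter on dim genes (adjusted p = 0.0442) and without induced A (-1.48, adjusted p = 0.00862). It also passed with the letter as a block (adjusted p = 0.00127) and with array weights (adjusted p = 0.000671). It did not pass after cyclic loess (-0.86, adjusted p = 0.168) or with any other array left out (adjusted p from 0.0812 to 0.286).

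Of the 12 priming genes 0 passed the test. Tnf, a cytokine gene that NF-κB drives, was at 8.62, 9.44 and 8.46 without doxycycline (A, B and C) and 8.66, 9.45 and 8.33 in induced A, B and C, a difference of -0.029 (adjusted p = 0.948). Cd14, the co-receptor of TLR4, was at 8.87, 9.40 and 8.60 and at 8.24, 8.85 and 7.44 (-0.78, SE 0.31, adjusted p = 0.153), with induced C at background.

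**Figure D3:**
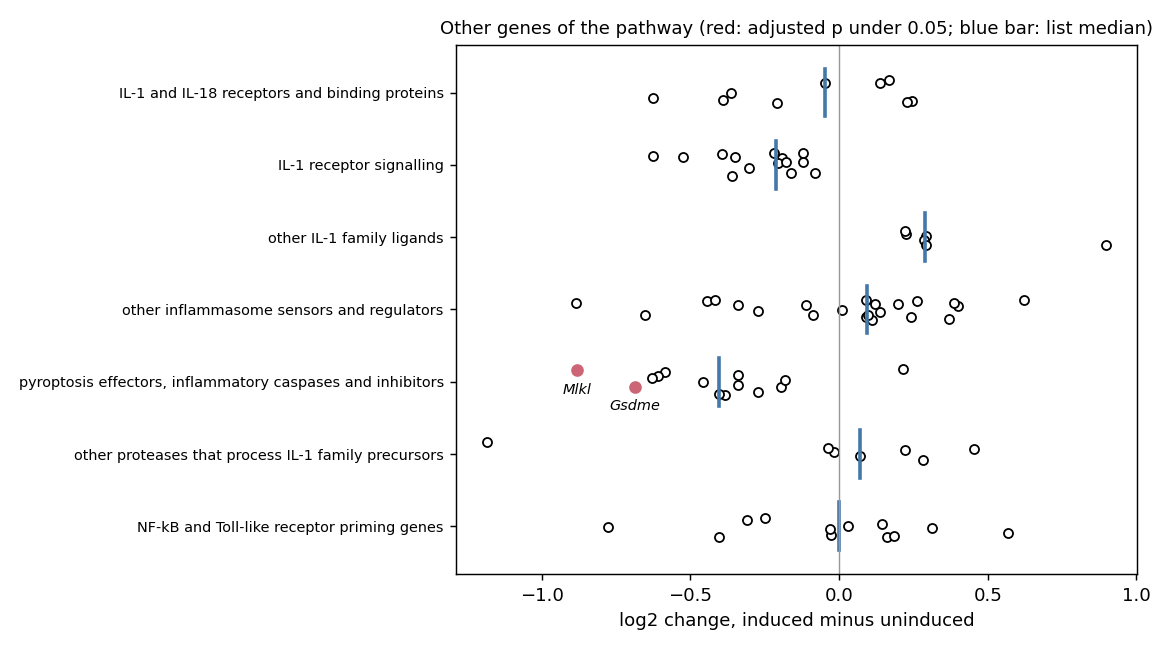
Log2 change (horizontal axis, induced minus uninduced) of each measured gene in the 7 pathway lists; open points did not pass the test, red points did, and a blue bar is the list median. The medians run from -0.40 for pyroptosis effectors to 0.29 for other ligands, and only Gsdme and Mlkl are red.

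For several of these genes the samples lettered B were the highest in both groups. This held for Il1b, Il1rn, Nlrp3 and Aim2, 4 of the 10 members. The same was true of 13 of the 85 pathway genes (15.3%), Il1f9, Tnf, Cd14, Casp4 and Il18rap among them, and of 8.01% of all genes. For C it was true of 1 member (Il18bp), 4 pathway genes (4.71%) and 9.58% of all genes. For A it was true of 0 members, 7 pathway genes (8.24%) and 5.19% of all genes. Il18 was not among the genes highest on B, where it had its lowest uninduced value. The letters were not shown to mark shared cultures, and the cause of the difference was not tested.

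The genes closest to Il18 in pattern were sought by the root-mean-square difference between deviations from each gene's own mean over the 6 arrays, with all 22179 other genes compared. The closest were Sirpb1c, a signal-regulatory protein gene whose family holds near-identical copies (0.22 on the log2 scale), and Bst1, an ADP-ribosyl cyclase gene (0.23). They were followed by Mrc1, the mannose receptor gene (0.25), Tlr8, a receptor for RNA (0.27), and Adgre1, a macrophage surface receptor gene (0.30). The median over all genes was 1.21, and the closest other member was Nlrp3, at 1.05 and rank 1707. This measure follows mainly the difference between the groups, which was known for Il18 beforehand. By size of rise among all genes Il18 ranked 8, Bst1 9, Adgre1 10, Sirpb1c 13, Tlr8 14 and Mrc1 18. Their closeness is thus a description of genes with a like rise, and shared regulation was not tested. The induced mean of Bst1 was 2.94-fold the mean background of the uninduced arrays, that of Mrc1 2.21-fold, Tlr8 2.41-fold and Adgre1 3.02-fold. Each, like Il18, was at background in all 3 uninduced samples. The higher background of induced B and C is not taken into account in these folds. Sirpb1c was at background on all 6 arrays.

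Markers of cell types moved beside Il18. Of 13 macrophage and monocyte markers 4 rose and 0 fell, Mrc1, Adgre1 and Ccr2 among the former, against 0.374% and 1.05% of all genes. At an unadjusted p under 0.05 there were 6 higher and 1 lower, against 11.4% and 16.9% of all genes, the latter being Cd14 (-0.78). Their mean log2 value was 7.38 to 7.50 on the uninduced and 7.94 to 8.15 on the induced arrays; Csf1r, Mertk, Fcgr1, Ccr2, C1qb and C1qc were at background on all 6 arrays. Of 12 neutrophil markers 6 rose and 0 fell, Mmp8, S100a9 and Ltf among the former, against the same 0.374% and 1.05% of all genes. At an unadjusted p under 0.05, 7 were higher and 0 lower, against 11.4% and 16.9% of all genes. The call of Ltf ended without uninduced A (2.07, adjusted p = 0.0589), uninduced B (2.03, adjusted p = 0.0525) or induced C (2.00, adjusted p = 0.0569). Their mean was 8.71 to 8.80 and then 9.30 to 9.70, with Ly6g and Retnlg at background throughout. None of the 8 dendritic, 9 mast cell and basophil, 8 T and NK, 6 erythroid and megakaryocyte or 12 fibroblast, hepatic and endothelial markers measured passed the test, and at an unadjusted p under 0.05 there were 1, 2, 2, 2 and 3 of them, against 28.3% of all genes. All 8 T and NK markers were at background on every array, as were Alb and Afp of liver cells. Of 8 B cell markers only Ighm passed the test, at -2.57 on the brightest of its 7 clusters. The other Ighm clusters ran from -0.08 to 0.57, and the mean of all was -0.097 (adjusted p = 0.58). Cd79a, Cd79b and Ebf1 were at background. The part of these shifts in the difference of Il18 was not tested.

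**Figure D4:**
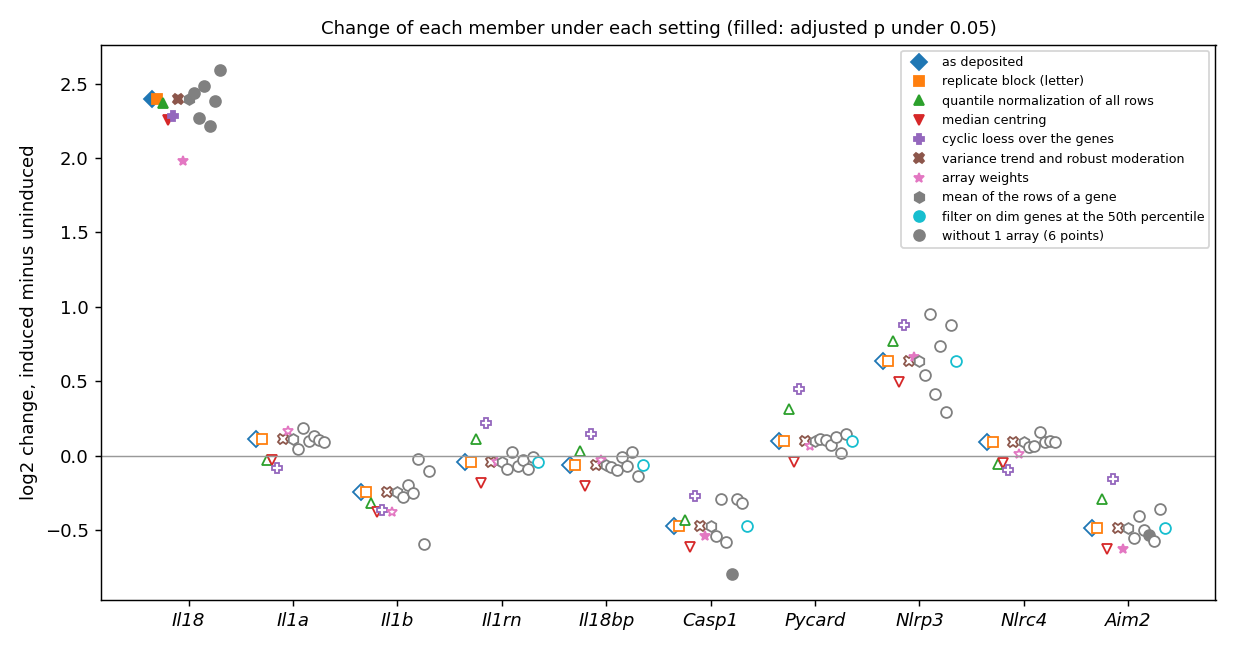
Log2 change of each member (vertical axis, induced minus uninduced) as deposited and under each alternative; a filled symbol marks an adjusted p under 0.05. Il18 stays between 1.98 and 2.59 and filled in every setting that tested it, while Il1a, Il1rn, Il18bp, Pycard and Nlrc4 lie on both sides of 0.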

How the data were processed

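RNA of 6 samples was measured on 1 Affymetrix Mouse Gene 2.0 ST array each. The deposited log2 expression values were used as given. Per the submitters' processing notes, Partek and the build mm10 were used; for the version, background correction, normalization and summary method, nothing is given in the sources used here. The scale was read from the values, 2.86 to 14.03.

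Of 41345 transcript clusters, 23521 had 1 gene symbol in GEO's platform annotation, 1814 had several and 16010 were not named. For a gene with several clusters the one with the highest mean stood for it, which gave 22180 genes. Induced and uninduced samples were compared across all genes with limma 3.58.1 in R 4.3.3 (lmFit, eBayes, two-sided, no covariate), with Benjamini-Hochberg adjustment and a threshold of 0.05. The test was also run on simulated data with independent noise. These held no shift with level and no raised background, so that check does not cover those features. Promoter sequences and coordinates are RefSeq's for GRCm38, which is mm10.

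Of 101 listed pathway names, 85 distinct genes were measured. Named genes are the members, Spi1, up to 4 genes past the threshold per pathway list or else the 2 brightest, up to 3 past the threshold per marker list, the 5 nearest to Il18 in pattern, and those said to be chosen for their role. Members, lists and alternatives were chosen with earlier results of these data known. Levels of different genes were not compared. The number of arrays limits the precision. The alternatives were quantile normalization, median centring, cyclic loess, the letter as a block, a filter on dim genes, a variance trend with robust moderation, array weights, the mean of a gene's clusters and leaving out each array.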

Additional observations from a re-analysis of the deposited data

How the results depend on the processing

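Il18 passed the test under all 13 alternatives that tested it, the replicate block among them. The filter on dim genes removed it, which left 0 members higher. Array weights gave 2 members higher (Il18 and Nlrp3) and 2 lower (Casp1 and Aim2), with 5825 and 5681 of all genes and 17 and 35 pathway genes; both C arrays weighed most, at 4.60 (uninduced) and 3.46 (induced), against 0.31 to 0.93 elsewhere. With each array left out in turn, 0 to 2 members were lower (Casp1 and Aim2 without induced A), with 45 to 1998 higher and 47 to 3535 lower among all genes and 0 to 5 higher and 0 to 13 lower among pathway genes, each highest without induced A. Over all clusters, deviations from the group means correlated at -0.15, -0.15 and 0.32 for A, B and C. These values differ in sign and do not settle whether the letter pairs the samples. The replicate block gave 174 higher and 425 lower of all genes, and 1 (Il1f9) and 6 of pathway genes, the latter Gsdme, Mlkl, Txnip (adjusted p = 0.0281), Casp4 (0.0479), Cd14 (0.0276) and Capn2 (0.00127). Median centring, which moved the median of all genes by -0.14, gave 46 and 153. Cyclic loess gave 118 lower. Pathway genes lower numbered 1 (Gsdme) after quantile normalization or cyclic loess and 4 with the dim filter; P2rx7 was the 1 higher with that filter or a variance trend.

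Of 609 gene values under alternatives, 37 lay on the other side of 0, all of genes that did not pass the test. After quantile normalization Il1a was at -0.028, Il1rn 0.11, Il18bp 0.032, Nlrc4 -0.054, Il1rl2 0.074, Myd88 0.028, Irak3 0.14, Elane -0.0012, Tnf 0.18 and Naip5 0.11. After median centring Il1a was at -0.031, Pycard -0.043, Nlrc4 -0.045 and Elane -0.071. After cyclic loess Il1a was at -0.082, Il1rn 0.22, Il18bp 0.14, Nlrc4 -0.096, Il1rl2 0.21, Myd88 0.17, Irak3 0.28, Nek7 0.090, Ctsg 0.046, Tnf 0.32, Gsdmd 0.083 and Naip5 0.25. Array weights put Ctsg at 0.027. Leaving out 1 array moved Il1rn between -0.089 and 0.027, Il18bp between -0.14 and 0.028, Il1rl2 between -0.25 and 0.11, Irak3 between -0.14 and 0.0055, Ctsg between -0.089 and 0.027 and Tnf between -0.35 and 0.27. The causes were not tested.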
